A study of Mus musculus with 141 samples.

Results

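The genes described here encode the nuclear-encoded subunits of the mitochondrial respiratory chain and ATP synthase. They were chosen by name: every symbol that begins with Nduf followed by a, b, c, s or v and a number, the symbols Sdha to Sdhd, symbols beginning with Uqcr, symbols beginning with Cox4 to Cox8 followed by a, b or c, and symbols beginning with Atp5. The rule found 82 of the 46517 genes in the table, made up of 37 of complex I, 4 of complex II, 8 of complex III, 16 of complex IV and 17 of complex V, the ATP synthase. It left out 4 rows whose symbols mark them as pseudogenes, and it takes in Atp5s and Atp5sl, whose products are not ATP synthase subunits in spite of their names. Ndufa4 is counted with complex I by its symbol, although its protein is now classed with complex IV.

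The respiratory chain passes electrons from NADH (through complex I) and from succinate (through complex II) to ubiquinone, then through complex III and cytochrome c to complex IV, where oxygen is reduced. Complexes I, III and IV pump protons across the inner mitochondrial membrane, and complex V uses the gradient to make ATP. Naive T cells are small resting cells, and their activation through the antigen receptor is accompanied by growth and by the building of new mitochondria. Most subunits are encoded in the nucleus and are translated in the cytosol, whereas a few core subunits are encoded in mitochondrial DNA. Tissue isoforms of some subunits exist, such as the muscle forms Cox6a2, Cox7a1 and Cox8b and the testis forms Cox6b2, Cox7b2 and Cox8c.

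The cells were CD4+CD25-CD44lo naive T cells of C57BL/6 mice, sorted from spleen and lymph nodes, and their RNA was sequenced in bulk. All cultured groups received plate-bound antibodies to CD3 (0.5 µg/ml) and CD28 (5 µg/ml), which stimulate the T cell receptor and its co-receptor, and were sampled at 9 times, the first 0.5 h after stimulation began, then at 1 h, 2 h, 4 h, 6 h, 12 h, 24 h, 48 h, with the last being 72 h. Courses 1, 2 and 3 compared cultures with IL6 (20 ng/ml) and TGFb (1 ng/ml), cytokines that start Th17 differentiation, with cultures given no cytokines. Courses 4, 5 and 6 had IL6 and TGFb at the same doses in every culture, with IL1b (10 ng/ml), with IL21 (20 ng/ml), or with both, and had no culture free of cytokines. Each set of courses had its own naive cells at 0 h, which received neither antibody nor cytokine, and each of the 47 groups had 3 libraries, 1 from each course. The libraries are labelled as biological replicates. No label says whether they came from separate mice, so the p-values measure the spread between these libraries.

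Depth ran between 15952020 and 47068754 counted reads per library, with a median of 25403424. Levels are given as CPM, read counts scaled to a fixed library total, after TMM scaling, which corrects for the share of reads that a few highly expressed genes take. Folds are differences of log2(CPM + 0.5) from a limma fit over all genes, with a standard error (SE), and a gene was called at a Benjamini-Hochberg adjusted p under 0.05. Some genes below were named because they were called and their libraries did not overlap. For these, a lack of overlap follows from the choice and is no further support. Of the 82 members, 78 reached 1 CPM in at least 3 libraries and were tested. The other 4 were Cox8b, with at most 0.347 CPM in any library, Ndufa4l2, with at most 0.716 CPM, Cox8c, with 1 read in all, and Cox7b2, with 0 reads. The table also lists 37 genes of the mitochondrial genome, all with 0 reads in every library, so the mitochondrially encoded subunits are not analysed here. The 2 sets of naive cells gave no called member (limma, 0 of 78, with 1 at an unadjusted p under 0.05, and 0 by edgeR and by DESeq2), beside 0.144% of all genes higher and 0.00652% lower in the naive cells of courses 4 to 6.

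The summed CPM of 5 T cell identity genes (Cd3d, Cd3e, Cd3g, Cd4 and Trac) was 1858 to 2051 at 72 h with IL6 and TGFb and 2291 to 2583 at 72 h without cytokines, against 3277 to 3574 in naive cells. For 6 B cell genes, mostly Ighm, the sums were 12.4 to 22.6 at 72 h with IL6 and TGFb, 99.7 to 461 at 72 h without cytokines and 477 to 531 in naive cells of courses 1 to 3. Myeloid genes summed to 2.90 to 3.59, 3.88 to 7.24 and 31.8 to 36.5 CPM in the same groups, CD8 genes to 5.00 to 6.03, 9.71 to 13.3 and 16.7 to 24.0 CPM, and genes of erythroid cells and platelets to 0.280 to 1.37, 0.467 to 0.738 and 26.3 to 51.8 CPM, with Pf4 and Ppbp at 0 in naive cells. At 24 h the CD8 genes summed to 1.98 to 2.65 CPM with IL6 and TGFb against 32.8 to 40.67 CPM without cytokines, the B cell genes to 20.7 to 26.75 against 208 to 278 CPM, and the T cell identity genes to 888 to 946 against 1854 to 2042 CPM. At 48 h the CD8 genes summed to 3.09 to 4.13 CPM with IL6 and TGFb against 11.6 to 16.1 CPM without, the B cell genes to 11.3 to 13.6 against 118 to 415 CPM, and the T cell identity genes to 1178 to 1280 against 1884 to 2145 CPM. The part that these cells had in the results below was not tested. At 2 time points 1 library stood apart from its replicates: the course 1 libraries without cytokines at 72 h and at 48 h lay at a root mean square distance of 0.62 and 0.42 (log2, all tested genes) from their group means, against a median of 0.156 over all libraries. For the counts and for some of the genes below, the value without them stands beside the result. Whether these libraries were exchanged or mislabelled was not tested. In bulk RNA, a change in the share of cells that carry an mRNA and a change in its amount per cell cannot be told apart.

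Stimulation without cytokines moved the tested members in 3 phases, which the plot of complex medians over time shows. The median member was close to its naive level in the first 2 h (-0.07, -0.13 and -0.04 on the log2 scale at 0.5 h, 1 h and 2 h), and then stood at 0.21 at 4 h, 0.39 at 6 h and 0.91 at 12 h. Later it stood at 0.74 at 24 h, 0.67 at 48 h and 0.51 at 72 h. The 3 libraries had medians between 0.86 and 0.93 at 12 h and between 0.37 and 0.61 at 72 h, so the lower level at 72 h lay outside the 12 h range in every library. Of the 74 tested members with a mean of at least 5 CPM, 50 had their highest mean at 12 h without cytokines, 5 at 24 h, 10 at 48 h, 2 at 72 h and 3 in the naive cells.

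**Figure D1:**
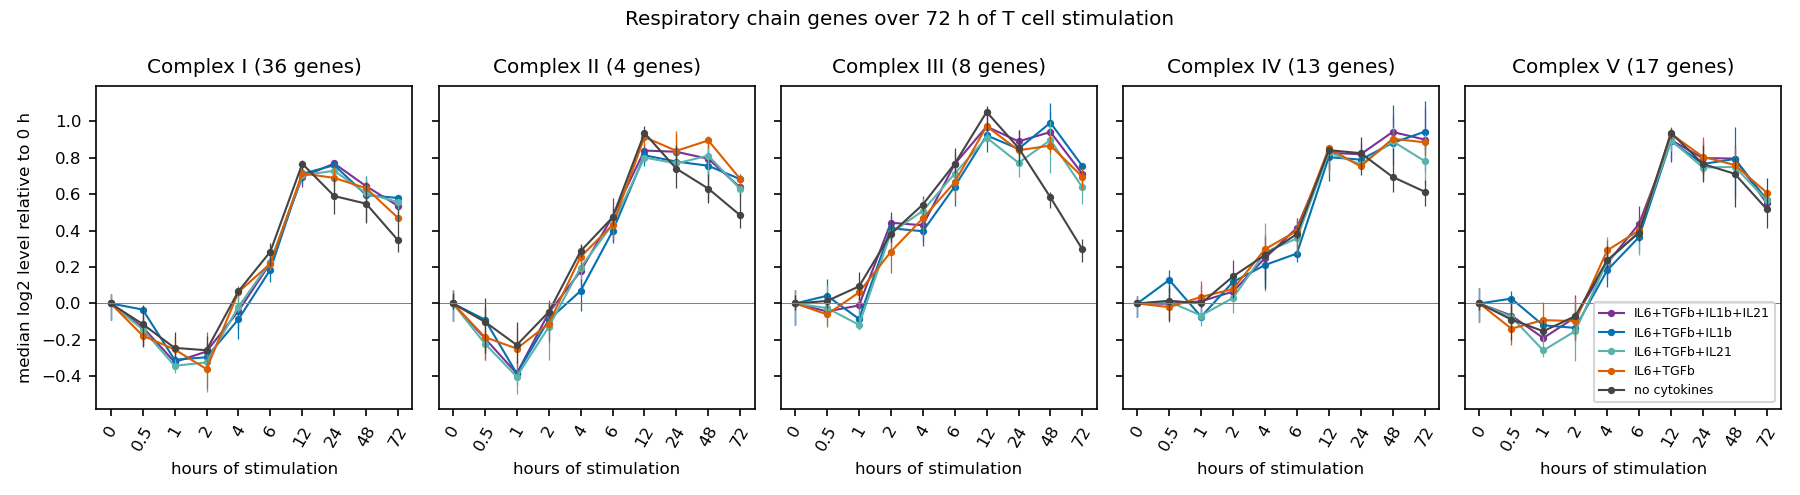
Median log2 difference from the naive cells (0 h) of the same courses, over the tested members of each complex, against hours of stimulation, with 1 line for each of the 5 cultures. Vertical lines run between the lowest and the highest library median. The medians of complex I without cytokines were below 0 at 2 h (-0.26) and highest at 12 h (0.77), whereas the median of complex III was already 0.38 at 2 h.

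At 12 h without cytokines, 66 of the 78 tested members were higher than in naive cells and 5 were lower, beside 34.9% of all tested genes higher and 36.8% lower. Their median was 0.91, against -0.05 for all genes. The higher members were 31 of 36 in complex I, 3 of 4 in complex II, 7 of 8 in complex III, 10 of 13 in complex IV and 15 of 17 in complex V, with medians of 0.77, 0.94, 1.05, 0.84 and 0.94. The counts at 24 h were 65 higher and 6 lower (36% and 36.7% of all genes, median 0.74), and at 72 h 56 higher and 5 lower (33.4% and 31.9% of all genes, median 0.51). Without the course 1 library at 72 h the counts there were 57 higher and 4 lower.

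The complexes did not start together. At 2 h, 22 tested members were higher and 29 lower than in naive cells, beside 32.2% of all genes higher and 36.9% lower, and the median member stood at -0.04, the same as all genes. Complex I had 7 higher and 20 lower of 36 with a median of -0.26, and complex III had 5 higher and 1 lower of 8 with a median of 0.38. Complex II had 1 higher and 1 lower of 4, complex IV 4 higher and 1 lower of 13, and complex V 5 higher and 6 lower of 17. Without TMM scaling the split at 2 h was 14 higher and 40 lower, a change of scale that moved the median of all genes by -0.175, to -0.22, and the member median to -0.27. The same difference between complexes I and III at 2 h was seen in every culture, with medians of -0.26 to -0.36 for complex I and of 0.28 to 0.44 for complex III.

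Complex I has a core of catalytic subunits, of which 7 are nuclear and were tested, and a shell of supernumerary subunits. The 29 tested genes counted here as supernumerary include Ndufa4, by its symbol. The core had medians of -0.27, 0.67 and 0.55 at 2 h, 12 h and 24 h, and the supernumerary subunits had -0.25, 0.78 and 0.61. All 7 core genes were called higher at 12 h and 6 at 24 h, beside 34.9% and 36% of all genes. At 72 h 3 core genes were higher and 1 lower, beside 33.4% and 31.9% of all genes, so the higher count was near that share. Among the supernumerary genes 24 were called higher at 12 h, another count of 24 at 24 h, and 21 at 72 h, beside the same shares of all genes. Ndufs7, which carries the last iron-sulfur cluster before ubiquinone, had 22.2, 23.8 and 25.9 CPM at 2 h against 47.7, 45.8 and 48.4 CPM in naive cells, and 73.4, 74.3 and 71.6 CPM at 12 h. The gene therefore lay below its naive range in all 3 libraries at 2 h (-0.97) and above it in all 3 at 12 h. Ndufs7 was called lower at 72 h by -0.23 (adjusted p = 0.027), a call that was lost without the course 1 library at 72 h (-0.19). Ndufv1, which binds NADH, had 50.8, 50.8 and 55.7 CPM at 2 h against 63.6, 64.0 and 62.8 CPM in naive cells, with 109, 110 and 106 CPM at 12 h. Ndufs1, the largest iron-sulfur subunit, went the other way at 2 h, with 91.5, 84.2 and 83.9 CPM against 71.7, 68.9 and 70.3 CPM in naive cells (0.30), and had 109, 114 and 111 CPM at 12 h.

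Among the supernumerary subunits of complex I the time courses differed more. Ndufa12 had 56.5, 60.2 and 52.5 CPM at 12 h, against 13.8, 11.53 and 11.48 CPM in naive cells, a log2 fold change of 2.16 ± 0.11 (SE; adjusted p = 1.63e-21). Ndufb6 had 55.9, 57.6 and 54.9 CPM at 12 h against 13.97, 13.7 and 13.7 CPM in naive cells (1.99 ± 0.10). Their 12 h libraries all lay far above the naive ones, and both remained called higher at 24 h (1.75 and 1.58). Ndufa5 rose early, to 31.2, 32.7 and 34.0 CPM at 2 h against 15.7, 14.8 and 13.99 CPM in naive cells (1.11 ± 0.10, adjusted p = 6.24e-14), and Ndufb6 was called higher at 2 h as well (0.70 ± 0.10). Ndufb10 fell to 23.2, 20.7 and 23.6 CPM at 2 h against 54.6, 48.1 and 50.5 CPM in naive cells (-1.16 ± 0.12) and was back at 49.8, 46.2 and 43.9 CPM at 12 h. Ndufc2 was called higher by 1.11 at 72 h. Ndufa6 was called lower at 24 h (-0.42) and at 72 h (-0.49), with 38.6, 43.7 and 44.8 CPM at 72 h against 60.9, 59.2 and 58.2 CPM in naive cells.

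Ndufv3, a small subunit of the NADH-oxidising module, ran against most of complex I at 12 h and 24 h. At 2 h it was 1 of the 20 lower members among the 36 of complex I. It had 49.5, 53.7 and 49.2 CPM in naive cells, 18.7, 16.4 and 16.7 CPM at 2 h, 11.6, 13.6 and 12.96 CPM at 4 h and 25.4, 28.1 and 26.4 CPM at 12 h. All libraries at 2 h, 4 h and 12 h lay below all naive libraries, with log2 fold changes of -1.53 ± 0.16 at 2 h and -0.92 ± 0.16 at 12 h (adjusted p = 8.56e-12 and 1.23e-06). At 24 h it was still called lower (-0.51, adjusted p = 0.00312), although not when course 2 was left out (-0.42). Without cytokines at 72 h it had 79.9 and 76.0 CPM in courses 2 and 3 and 41.1 CPM in course 1, the library that stood apart, and it was called higher than in naive cells only without that library (0.61).

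Complex II, succinate dehydrogenase, is also an enzyme of the tricarboxylic acid (TCA) cycle. Its membrane anchor Sdhd had 109, 111 and 102 CPM at 12 h against 41.5, 43.0 and 40.9 CPM in naive cells (1.35 ± 0.09), and reached 128, 150 and 145 CPM at 24 h (1.74 ± 0.09, adjusted p = 3.05e-21). The other anchor Sdhc had 101, 98.6 and 96.7 CPM at 12 h against 48.4, 54.2 and 49.8 CPM in naive cells (0.95 ± 0.10). Both anchors were above the naive range in every library at 12 h. The iron-sulfur subunit Sdhb had 130, 144 and 137 CPM at 12 h against 71.5, 75.7 and 69.3 CPM in naive cells. Its call at 2 h (0.18 ± 0.08, adjusted p = 0.0372) was lost in each of the 3 fits without 1 course (0.16 to 0.20) and turned to -0.05 without TMM scaling. The catalytic flavoprotein Sdha fell to 167, 161 and 147 CPM at 2 h against 254, 252 and 251.1 CPM in naive cells (-0.68 ± 0.08, adjusted p = 7.29e-10), and its level at 12 h, 292, 283 and 276 CPM, was not called (0.17, adjusted p = 0.0594).

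In complex III the early genes were Uqcrfs1, the Rieske iron-sulfur protein, and Uqcrq, a small subunit at the ubiquinone site. Uqcrfs1 had 162, 146 and 148 CPM at 2 h against 69.6, 74.7 and 73.6 CPM in naive cells (1.06 ± 0.08, adjusted p = 1.17e-15), and was already at 116, 124 and 98.1 CPM at 1 h. Uqcrq had 105, 117 and 108 CPM at 12 h against 30.8, 34.7 and 31.6 CPM in naive cells (1.75 ± 0.08), after 109, 116 and 114 CPM at 4 h. The naive libraries of both genes lay below all libraries at these times. The core protein Uqcrc1 had 216, 201 and 207 CPM at 2 h against 151, 157 and 152 CPM in naive cells (0.44 ± 0.07), with 280, 300 and 283 CPM at 12 h. Uqcr11, another small subunit, fell to 12.5, 11.9 and 9.67 CPM at 2 h against 17.9, 18.8 and 17.7 CPM in naive cells (-0.66 ± 0.14) and then stood at 53.3, 55.7 and 49.9 CPM at 12 h (1.52 ± 0.14). Uqcr10 had the largest fold of complex III at 24 h, with 75.2, 85.8 and 85.1 CPM against 27.1, 29.5 and 27.6 CPM in naive cells (1.53 ± 0.14). Uqcrh, the hinge protein that helps cytochrome c bind, was the exception in this complex: it had 73.0, 68.9 and 69.6 CPM at 6 h against 106, 105 and 108 CPM in naive cells, and was called lower at 12 h (-0.17), 24 h (-0.30) and 72 h (-0.28). Its call at 12 h was lost without course 2 (-0.18) or course 3 (-0.12).

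In complex IV, cytochrome c oxidase, Cox5a had 89.97, 102 and 89.0 CPM at 12 h against 30.6, 35.0 and 31.7 CPM in naive cells (1.52 ± 0.09), and Cox5b had 74.1, 84.3 and 74.8 CPM against 35.8, 38.7 and 37.9 CPM. Both encode structural subunits used in all tissues. Among the ubiquitous isoforms, Cox7a2 had 87.5, 98.9 and 88.5 CPM at 12 h against 36.4, 39.4 and 36.4 CPM in naive cells (1.28 ± 0.08), and Cox7b had 117, 121 and 114 CPM against 48.2, 50.7 and 47.4 CPM. For Cox6b1 the values were 137, 142 and 133 CPM against 65.0, 71.7 and 74.5 CPM, for Cox8a 144, 148 and 137 CPM against 83.5, 85.4 and 84.4 CPM, and for Cox6a1 130, 139 and 137 CPM against 110, 105 and 106 CPM. Ndufa4, whose protein sits in complex IV, had 129, 127 and 122 CPM against 49.96, 54.6 and 53.9 CPM. In all of these genes the 12 h libraries lay above every naive library.

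Cox7a2l did the opposite. Its protein is a relative of Cox7a2 known from supercomplexes of complexes III and IV. Whether it has that role in these C57BL/6 cells was not tested. The gene had 285, 276 and 282 CPM in naive cells, 200, 163 and 195 CPM at 2 h, 66.5, 56.5 and 76.6 CPM at 4 h and 50.02, 50.1 and 49.1 CPM at 6 h. The 12 h libraries, with 68.0, 60.6 and 60.2 CPM, all stayed far below the naive ones (-2.15 ± 0.16, adjusted p = 3.77e-16), and it was still lower at 24 h (-1.62) and at 72 h (-1.27). At 72 h the course 1 library without cytokines had 70.4 CPM against 151 and 146 CPM in courses 2 and 3, and without it the difference was -0.92. In courses 4 to 6, with cytokines, the same fall was seen at 6 h: 51.5, 49.0 and 57.6 CPM with IL1b, 49.5, 53.6 and 53.0 CPM with IL21 and 50.3, 48.6 and 55.5 CPM with both, against 301, 341 and 296 CPM in naive cells.

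In complex V the catalytic beta subunit Atp5b had 1858, 1969 and 1795 CPM at 12 h against 661, 688 and 695 CPM in naive cells (1.46 ± 0.10), and the alpha subunit Atp5a1 had 1201, 1245 and 1168 CPM against 565, 593 and 580 CPM (1.06 ± 0.07). Atp5d, the delta subunit of the central stalk, was early, with 220, 196 and 203 CPM at 2 h against 106, 114 and 118 CPM in naive cells (0.87 ± 0.08, adjusted p = 4.8e-13). Atp5c1, the gamma subunit of the same stalk, was lower at 2 h, with 79.7, 79.5 and 74.9 CPM against 139, 147 and 136 CPM (-0.85 ± 0.09), but higher at 12 h, with 230, 223 and 206 CPM. At 2 h the libraries of these partner subunits lay on opposite sides of their naive ranges. Both were named as called genes at the extremes with no overlap, so this follows from the choice. Atp5f1, the b subunit of the outer stalk, was called higher at 72 h (0.83). Of the genes that carry the Atp5 name without encoding a subunit, Atp5sl was lower at 2 h (-0.91), 12 h (-0.87), 24 h (-1.18) and 72 h (-1.01), with 23.4, 23.2 and 24.8 CPM at 12 h against 47.8, 44.3 and 39.4 CPM in naive cells. Atp5s was lower at 2 h (-0.997), with 1.11, 1.19 and 1.20 CPM against 2.602, 3.003 and 2.87 CPM.

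The c ring of ATP synthase is built from 1 mature protein that 3 genes encode, Atp5g1, Atp5g2 and Atp5g3, and their mRNAs followed different courses. Atp5g1 had 55.3, 61.6 and 64.3 CPM at 2 h against 26.3, 33.8 and 25.6 CPM in naive cells (1.08 ± 0.12, adjusted p = 4.55e-11), and 128, 137 and 133 CPM at 12 h (2.21 ± 0.12). By 72 h it had come down to 50.7, 39.4 and 42.8 CPM. Atp5g2 moved the other way at first, with 31.7, 33.2 and 29.8 CPM at 2 h against 48.7, 51.2 and 43.3 CPM in naive cells (-0.59 ± 0.11, adjusted p = 3.89e-06), and stood at 96.5, 97.96 and 91.5 CPM at 12 h (0.99 ± 0.11). Atp5g3 had 188, 186 and 187 CPM at 2 h against 116, 120 and 123 CPM in naive cells (0.64 ± 0.08), 307, 295 and 280 CPM at 12 h (1.29), and still 223, 193 and 227 CPM at 72 h (0.84). At 2 h the libraries of Atp5g1 and Atp5g3 all lay above their naive ranges and those of Atp5g2 all below. Processed copies of these genes exist in the mouse genome, and reads shared with such copies could not be assigned from the table.

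**Figure D2:**
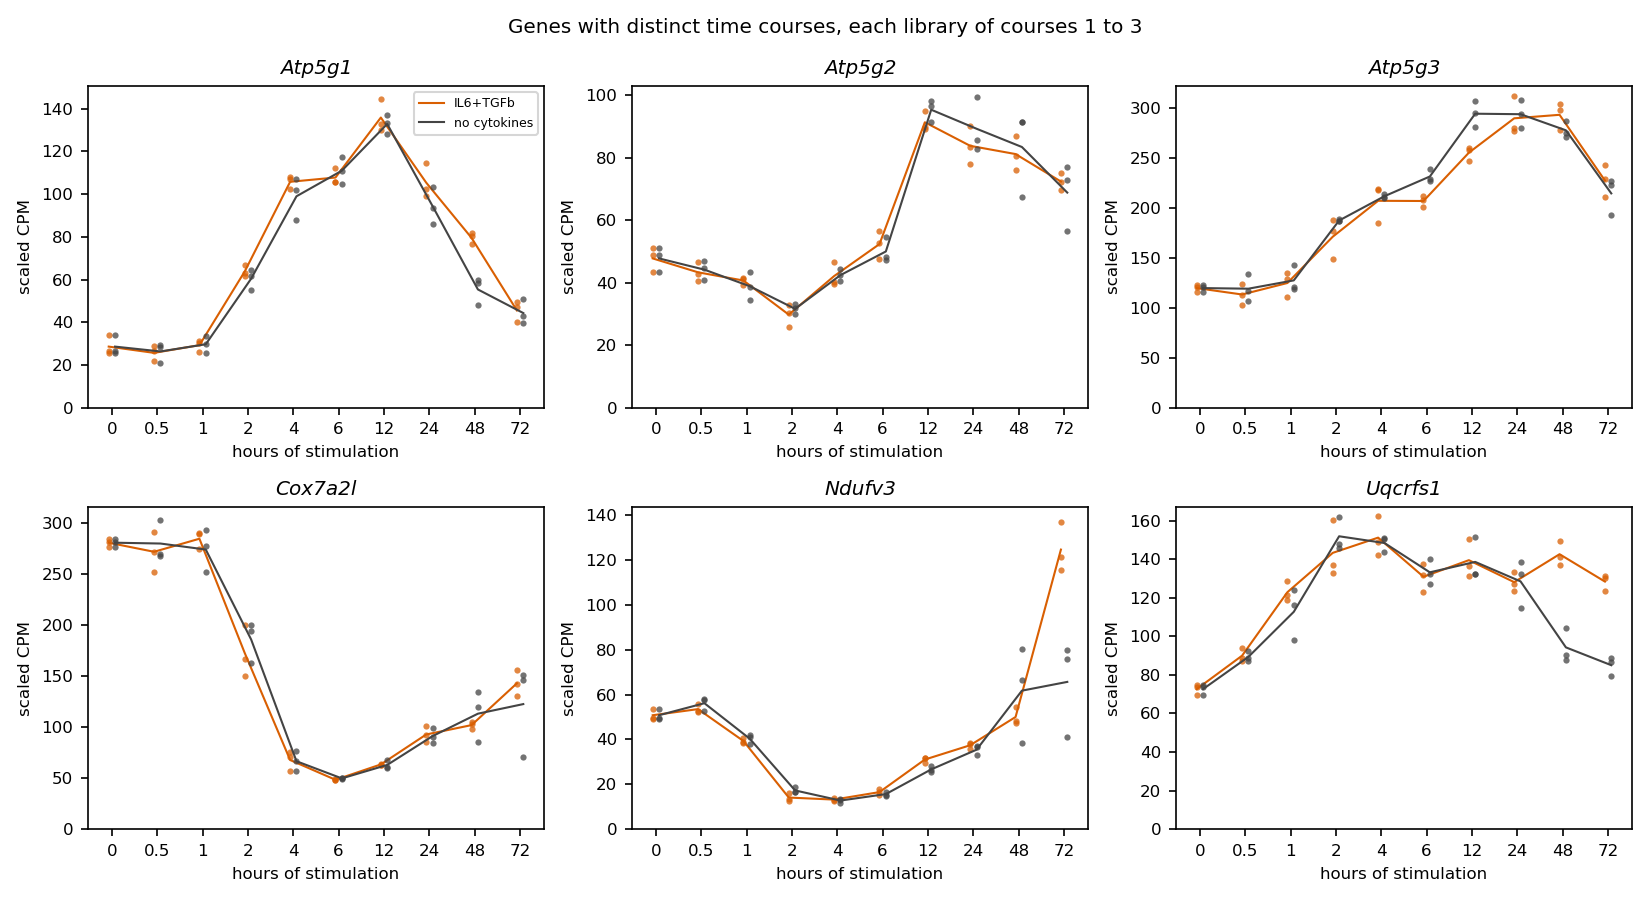
Level in CPM (TMM-scaled) against hours for Atp5g1, Atp5g2, Atp5g3, Cox7a2l, Ndufv3 and Uqcrfs1, with a point for each library of courses 1 to 3 and lines through the means, for cultures with IL6 and TGFb and cultures without cytokines. Cox7a2l is at 276 to 285 CPM in naive cells and at 49.1 to 50.1 CPM at 6 h without cytokines, and the single low points of Ndufv3 and Cox7a2l at 72 h are the course 1 library.

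Promoter windows were read for the c ring genes and for 2 members with large folds of opposite sign, Sdhd and Cox7a2l, to show the DNA at their start sites beside the values. Each runs over 300 bases, with 250 before and 50 after the RefSeq start, in assembly GRCm38.p6 and in the direction of transcription, and capitals mark matches to 3 motifs of factors known to act on respiratory genes: NRF1 (GCGCANGCGC), ETS factors such as GABP (CCGGAAG) and YY1 (AAGATGGC), searched on both strands. Atp5g1 (chr11:96075582-96075881, minus strand) and Cox7a2l (chr17:83514284-83514583, minus strand) hold no match. Atp5g2 (chr15:102670998-102671297, minus strand) and Atp5g3 (chr2:73911277-73911576, minus strand) hold a match to the NRF1 motif, and Sdhd (chr9:50603800-50604099, minus strand) holds matches to the NRF1 and ETS motifs.
Atp5g1: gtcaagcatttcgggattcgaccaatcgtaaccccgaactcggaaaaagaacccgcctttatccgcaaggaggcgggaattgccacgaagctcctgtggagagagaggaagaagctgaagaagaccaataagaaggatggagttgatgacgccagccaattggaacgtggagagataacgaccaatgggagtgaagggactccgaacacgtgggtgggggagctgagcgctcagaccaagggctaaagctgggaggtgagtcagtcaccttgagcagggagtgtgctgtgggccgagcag
Atp5g2: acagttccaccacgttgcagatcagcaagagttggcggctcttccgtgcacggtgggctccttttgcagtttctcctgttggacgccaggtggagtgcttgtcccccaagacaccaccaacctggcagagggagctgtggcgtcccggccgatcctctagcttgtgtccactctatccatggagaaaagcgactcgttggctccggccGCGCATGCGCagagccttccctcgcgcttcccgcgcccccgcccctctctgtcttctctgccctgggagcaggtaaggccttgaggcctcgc
Atp5g3: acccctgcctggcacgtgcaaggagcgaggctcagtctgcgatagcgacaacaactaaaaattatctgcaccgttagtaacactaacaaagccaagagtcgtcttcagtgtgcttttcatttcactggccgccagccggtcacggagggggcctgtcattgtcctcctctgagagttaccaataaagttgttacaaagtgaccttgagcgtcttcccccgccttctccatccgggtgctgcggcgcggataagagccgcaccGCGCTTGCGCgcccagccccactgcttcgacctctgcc
Sdhd: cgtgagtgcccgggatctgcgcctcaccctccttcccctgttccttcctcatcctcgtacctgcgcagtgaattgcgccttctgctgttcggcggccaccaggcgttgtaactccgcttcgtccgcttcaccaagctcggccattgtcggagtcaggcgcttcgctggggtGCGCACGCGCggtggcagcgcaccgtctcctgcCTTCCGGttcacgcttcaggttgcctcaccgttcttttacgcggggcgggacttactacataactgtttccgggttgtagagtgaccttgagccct
Cox7a2l: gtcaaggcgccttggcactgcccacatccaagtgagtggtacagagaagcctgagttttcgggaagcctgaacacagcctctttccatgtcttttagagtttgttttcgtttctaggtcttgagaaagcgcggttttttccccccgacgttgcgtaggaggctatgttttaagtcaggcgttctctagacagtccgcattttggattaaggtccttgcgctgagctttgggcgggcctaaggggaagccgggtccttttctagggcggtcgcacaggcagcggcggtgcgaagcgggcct

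Windows were found for 66 of the 82 members by symbol. The NRF1 motif was in 17 of the 66 (25.8%), against 11.2% of 10180 tested genes with a window and 5.19% of all 27025 genes with one. For the ETS motif the numbers were 16 (24.2%), against 19.5% and 9.93%, and for the YY1 motif 9 (13.6%), against 5.26% and 3.19%. At least 1 of the 3 was in 36 members (54.5%), against 31.6% of tested genes and 16.4% of all genes. By complex the share with any match was 17 of 32 in complex I, all 3 in complex II, 3 of 5 in complex III, 3 of 13 in complex IV and 10 of 13 in complex V. A match is a string of letters and was not tested as a binding site. A window without one lacks only these strings.

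**Figure D3:**
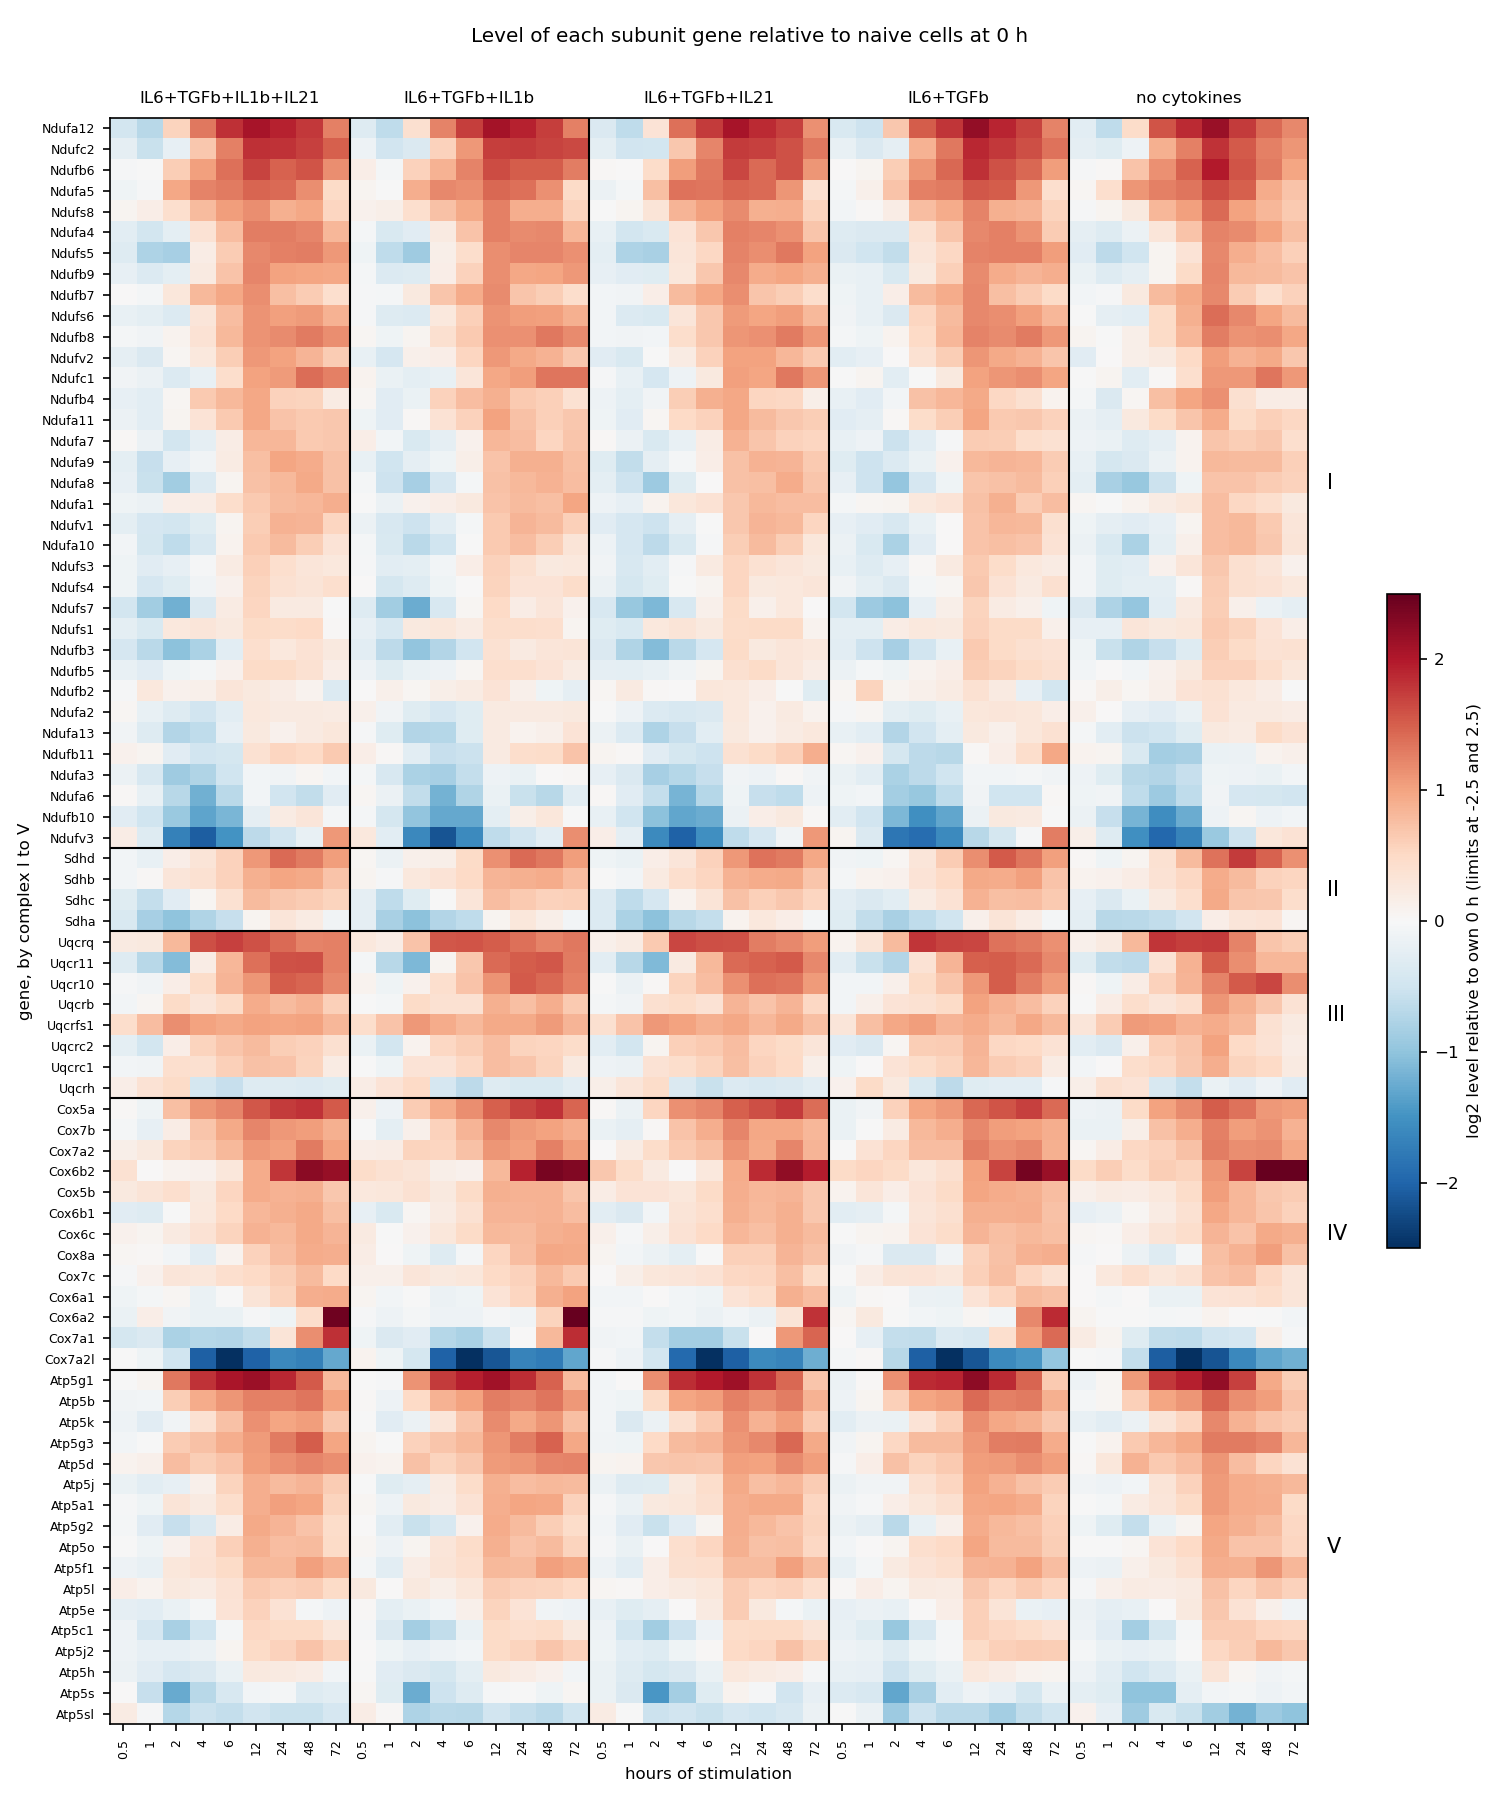
Log2 difference from the naive cells of the same courses for 77 of the tested members (down the page, by complex) at 9 times in each of 5 cultures (across), with colours held at 2.5 above and below 0. Without cytokines 50 of the 74 members of at least 5 CPM have their highest mean at 12 h, and Cox7a2l, Atp5sl and, at the early times, Ndufv3 stand out as lower.

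IL6 and TGFb changed few members at first. At 2 h, with cytokines against without, 0 tested members were higher and 1 was lower by limma (5.36% and 7.3% of all genes; 6 members at an unadjusted p under 0.05, and 1 called by edgeR and by DESeq2). The member was Ndufa5, with 27.4, 23.7 and 23.3 CPM with the cytokines against 31.2, 32.7 and 34.0 CPM without (-0.39 ± 0.09, adjusted p = 0.0028). This call was lost without course 2 (-0.36) or course 3 (-0.32). At 24 h 7 members were higher and 0 lower, beside 13.5% and 12.5% of all genes, with 11 at an unadjusted p under 0.05. They were Ndufa1 (0.38 ± 0.09), Ndufs5, Ndufb11, Uqcr11, Cox7a1, Atp5d and Atp5sl. Ndufa1 had 42.6, 41.2 and 50.1 CPM with IL6 and TGFb against 30.9, 34.4 and 37.1 CPM without cytokines, groups that did not overlap. The calls of Ndufs5 (0.35), Uqcr11 (0.37), Ndufb11 (0.30) and Atp5sl (0.34) were lost in each fit without 1 course, and those of Atp5d (0.30) and Cox7a1 (0.84) without course 2 (0.30 and 0.67). Without TMM scaling 6 were higher and 1 lower.

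At 48 h with IL6 and TGFb, 18 members were higher and 5 lower than without cytokines, beside 27.7% and 25.3% of all genes, and the member median was 0.08. This median turned to -0.07 without TMM scaling, which moved the median of all genes by -0.123 and gave 12 higher and 23 lower. Among members of at least 5 CPM, the largest rises were in subunits of different complexes. The muscle isoforms Cox6a2 and Cox7a1 of complex IV, described below, rose more from levels under 5 CPM. Cox5a had 105, 107 and 109 CPM against 70.5, 68.1 and 69.1 CPM without cytokines (0.63 ± 0.09), Atp5d 251.2, 264 and 244 CPM against 158, 171 and 162 CPM (0.63 ± 0.08), and Uqcrq 80.9, 80.5 and 80.7 CPM against 56.8, 46.4 and 55.2 CPM (0.61 ± 0.08). Uqcrfs1 had 137 to 150 CPM against 87.8 to 104 CPM (0.60 ± 0.08, adjusted p = 2.78e-08). In these genes every library with cytokines was above every library without. For Atp5d and Uqcrq this was a condition of being named, and so is no further support. Smaller rises were called for Atp5g1 (0.52), Ndufs5 (0.49), Sdhb (0.44), Cox6a1 (0.35) and Ndufb10 (0.35), the last of which was lost without course 2 (0.43) or course 3 (0.35), without TMM scaling (0.20) and without the course 1 library at 48 h (0.24). Of the members that fell, Atp5e, the epsilon subunit, had 77.4, 88.8 and 92.0 CPM against 101, 109 and 109 CPM (-0.31), and its call was lost without course 1 (-0.27) or course 2 (-0.31). Ndufb2 (-0.40) lost its call without course 1 (-0.28) or course 3 (-0.37), and Ndufa7 (-0.23) without course 2 (-0.23), without course 3 (-0.22), without the course 1 library at 48 h (-0.24), with no filter (-0.23) and in a fit of only the groups compared (-0.23). Without the course 1 library at 48 h the counts were 17 higher and 9 lower, with 18 of the 23 called members shared.

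At 72 h the counts were 19 higher and 3 lower with IL6 and TGFb, beside 22.9% and 23.4% of all genes, and the member median was 0.08. Without TMM scaling they were 15 and 10, and the median was -0.02. Complex III had 5 of 8 higher and a median of 0.23, against 7 of 36 and 0.05 in complex I, 4 of 13 and 0.16 in complex IV and 2 of 17 and 0.04 in complex V. Uqcrfs1 had 131, 123 and 130 CPM with IL6 and TGFb against 88.8, 79.5 and 86.8 CPM without cytokines (0.59 ± 0.08, adjusted p = 3.6e-08), Uqcrq 68.5, 74.4 and 73.1 CPM against 48.2, 47.8 and 53.8 CPM (0.52 ± 0.08), and Uqcrh 105, 102 and 106 CPM against 88.9, 84.6 and 88.7 CPM (0.26, a call lost without course 2 at 0.25). The naive libraries of Uqcrh were at 105 to 108 CPM. Without the course 1 library without cytokines, 22 members were higher and 7 lower, and 18 of the 22 calls were shared. In complex III the calls of Uqcr11 and Uqcrb were lost without it, and Uqcrc2 and Uqcr10 were called instead. The calls of Uqcrfs1 (0.50 to 0.63) and Uqcrq (0.43 to 0.57) were kept in all 12 alternative fits. Set against the naive cells of the same courses, the median of complex III at 72 h was 0.64 to 0.75 in the 4 cytokine cultures and 0.30 without cytokines, and that of complex IV was 0.78 to 0.94 and 0.61, as the plot of complex medians shows. The fold changes at this time are shown in the plot of fold changes by complex.

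**Figure D4:**
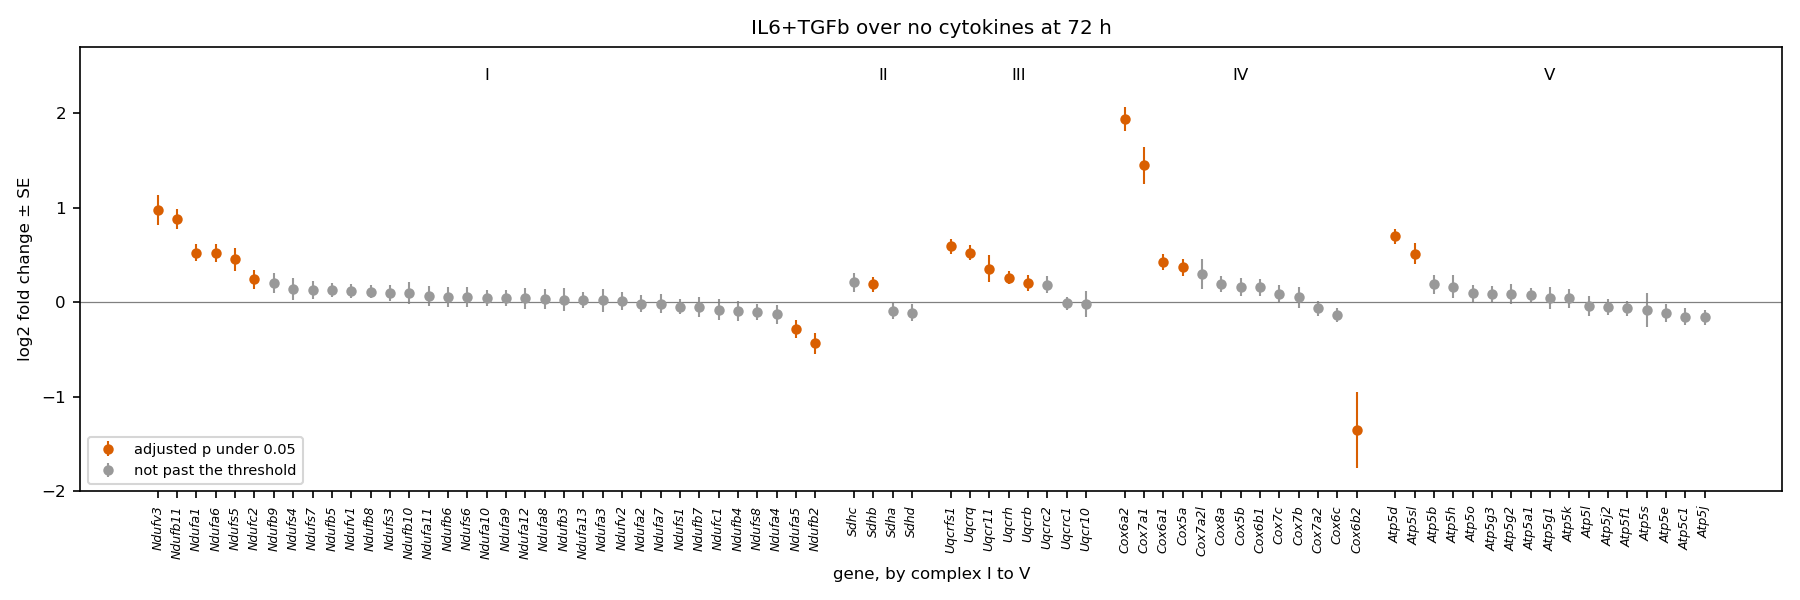
Log2 fold change with its SE at 72 h, IL6 and TGFb over no cytokines, for 77 of the tested members, ordered by complex, with adjusted p under 0.05 in orange. Cox6a2 (1.93) and Cox7a1 (1.45) are the highest and Cox6b2 (-1.35) the lowest. Uqcrfs1 and Uqcrq lead complex III.

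In complex I at 72 h, Ndufb11 had 118, 109 and 108 CPM with IL6 and TGFb against 47.1, 62.6 and 74.9 CPM without cytokines (0.88 ± 0.10, adjusted p = 1.86e-09), and Ndufv3 had 137, 121 and 116 CPM against 41.1, 79.9 and 76.0 CPM (0.98 ± 0.16). Every library with cytokines was above every one without, which was a condition for naming both genes. Without the course 1 library the differences were 0.70 for Ndufb11 and 0.67 for Ndufv3. Ndufa6 had 62.3, 61.0 and 59.3 CPM against 38.6, 43.7 and 44.8 CPM (0.52 ± 0.10). Ndufa5 (-0.29) and Ndufb2 (-0.44) were lower, Ndufb2 with 6.44, 5.79 and 5.68 CPM against 7.74, 8.90 and 8.11 CPM. The call of Ndufa5 was lost without course 2 (-0.31) or course 3 (-0.28), and that of Ndufb2 without course 2 (-0.36). In complexes IV and V, Atp5d had 235, 256 and 214 CPM against 163, 136 and 136 CPM (0.70 ± 0.08), Cox6a1 176, 192 and 167 CPM against 136, 128 and 133 CPM (0.42), and Cox5a 81.9, 93.5 and 87.1 CPM against 62.4, 67.4 and 73.1 CPM (0.37). Atp5sl had 32.3, 31.4 and 28.9 CPM against 25.6, 20.6 and 18.7 CPM (0.51).

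The signed log2 effect of IL6 and TGFb was higher at 72 h than at 24 h, by a test of the difference between the 2 effects, in 8 members and lower in 0 (12.6% and 8.79% of all genes). The count of 8 of 78 is near the share over all genes and is not read as a trait of the members. Without TMM scaling the counts were 7 and 2. The 8 were Cox6a2, Ndufv3, Ndufa6, Uqcrfs1, Ndufb11, Uqcrq, Atp5d and Cox8a. In Cox8a every 24 h library with the cytokines lay below those without, so its higher signed effect is not simply a larger one. For Uqcrfs1 the 24 h libraries had 127, 124 and 134 CPM with the cytokines against 115, 139 and 132 CPM without, groups that overlapped, whereas at 72 h they did not. All 8 were shared when the course 1 library at 72 h was left out, with 9 higher and 2 lower in all. Without it the difference was 0.59 for Ndufv3 and 0.40 for Ndufb11.

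The tissue isoforms of complex IV were low in naive cells and included the most changed members, as the plot of isoforms shows. Cox6a2, the muscle form, was at 0, 0 and 0.110 CPM in naive cells and at 0.0334, 0 and 0 CPM at 72 h without cytokines, the first being 1 read. With IL6 and TGFb it had 0.978, 0.645 and 0.593 CPM at 48 h and 1.26, 1.77 and 1.36 CPM at 72 h. The difference at 72 h was 1.93 ± 0.13 on the log2(CPM + 0.5) scale (adjusted p = 4.71e-17), a value that depends on the added 0.5 because the cultures without cytokines are near 0. It was 1.97 without the course 1 library, and without the whole of course 1 the gene fell under the filter and was not tested. The gene passed the filter in courses 1 to 3 through late libraries with IL6 and TGFb, the group compared here. Its p-value is therefore no independent support for the difference. In courses 4 to 6 at 72 h it was at 1.75, 3.05 and 3.78 CPM with IL1b, 0.767, 1.72 and 1.92 CPM with IL21 and 1.52, 2.88 and 3.21 CPM with both.

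Cox7a1, the muscle and heart form, had 2.11, 2.55 and 1.95 CPM at 72 h with IL6 and TGFb against 0.634, 0.527 and 0.326 CPM without cytokines (1.45 ± 0.20, adjusted p = 5.38e-08), and was called higher at 24 h (0.84 ± 0.20, lost without course 2 at 0.67) and at 48 h (0.91). No library with the cytokines overlapped those without at 24 h, 48 h or 72 h. The 72 h libraries with IL6 and TGFb were enough for Cox7a1 to pass the filter of 1 CPM in 3 libraries. Those without cytokines at 72 h stayed under 1 CPM. Its p-values are therefore no independent support for the differences. With IL1b it had 3.49, 3.66 and 3.57 CPM at 72 h, with IL21 3.15, 2.10 and 2.498 CPM and with both 3.97, 3.45 and 3.01 CPM. Cox6b2, the testis form, went the other way: it had 2.36, 5.17 and 4.67 CPM at 72 h with IL6 and TGFb against 26.2, 6.50 and 6.94 CPM without (-1.35 ± 0.41, adjusted p = 0.00556), and 3.95, 5.42 and 5.24 CPM at 48 h against 8.05, 35.4 and 28.1 CPM (-1.95 ± 0.41). The highest value at 72 h and the lowest at 48 h without cytokines were both in course 1, in the libraries that stood apart. The course 1 value at 48 h was near those of the other courses at 72 h, and its value at 72 h near theirs at 48 h. Whether these 2 libraries were exchanged or mislabelled was not tested. Without the library at 72 h the difference there was -0.72 and not called, and without the library at 48 h the difference there was -2.59. Against naive cells, with 0.520, 0.480 and 0.552 CPM, Cox6b2 at 72 h without cytokines was higher by 3.46 ± 0.41, and by 2.83 without the course 1 library.

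**Figure D5:**
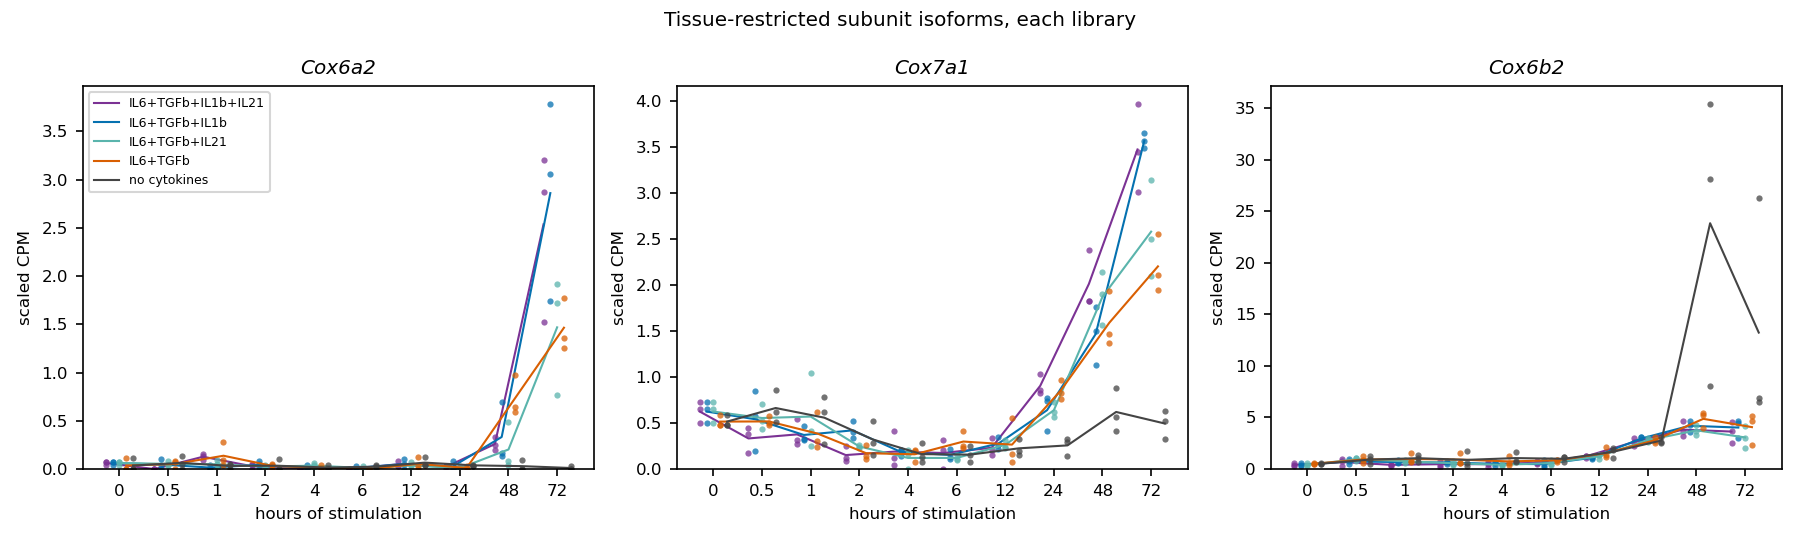
Level in CPM (TMM-scaled) against hours for the complex IV isoforms Cox6a2, Cox7a1 and Cox6b2 in all 5 cultures, with a point for each library and lines through the means. Cox6a2 is at or near 0 without cytokines and reaches 0.767 to 3.78 CPM at 72 h in the 4 cytokine cultures, and Cox6b2 without cytokines is spread between 6.50 and 26.2 CPM at 72 h.

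The rise of the respiratory genes was also present in the courses with separate naive cells. For the mean of 24 h, 48 h and 72 h against naive cells of the same courses, 67 members were higher and 4 lower with IL6 and TGFb (40.4% and 39.9% of all genes), 66 and 4 with IL1b added (41.3% and 43.5%), 65 and 4 with IL21 added (41.1% and 43%) and 66 and 4 with both added (41.8% and 43.3%). The member medians were 0.73, 0.79, 0.71 and 0.78. The 66 members higher with both cytokines added, in courses 4 to 6, were all among the 67 higher with IL6 and TGFb in courses 1 to 3 (100% and 98.5%), beside shares of 90.9% and 95.1% for all genes called higher, and Ndufv3 was the single one called in courses 1 to 3 only. The 4 lower members were the same in both, namely Cox7a2l, Atp5sl, Ndufa6 and Uqcrh, beside shares of 86.4% and 94.9% for all genes called lower. The call of Uqcrh with IL6 and TGFb (-0.19) was lost without course 2 (-0.18).

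The values of single members were close between these courses. With IL6 and TGFb, and with IL1b, IL21 or both added, the log2 differences were 1.61, 1.64, 1.58 and 1.66 for Ndufa12, 1.58, 1.69, 1.54 and 1.67 for Ndufc2, and 1.30, 1.26, 1.20 and 1.25 for Sdhd. In the same order they were 1.57, 1.65, 1.58 and 1.69 for Cox5a, 1.37, 1.46, 1.40 and 1.48 for Uqcr11, and 1.34, 1.37, 1.32 and 1.41 for Atp5g1. For Cox7a2l they were -1.34, -1.57, -1.49 and -1.53. The late rise of Ndufv3 was also seen there: at 72 h it had 116, 123 and 120 CPM with IL1b, 104, 113 and 121 CPM with IL21 and 105, 117 and 118 CPM with both, against 55.8, 52.9 and 50.7 CPM in naive cells. Uqcrfs1 had 118, 130 and 134 CPM, 103, 125 and 130 CPM and 114, 127 and 133 CPM in the same groups at 72 h, against 74.9, 69.8 and 66.3 CPM in naive cells.

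Between the cocktails the members differed little. IL1b against IL21, each with IL6 and TGFb, gave 1 member higher and 1 lower over 24 h to 72 h by limma (4.33% and 6.7% of all genes, with 13 members at an unadjusted p under 0.05 and 2 called by edgeR and by DESeq2). Cox6a2 was called higher with IL1b (0.35, adjusted p = 0.0168), but not without course 5 (0.34) or course 6 (0.35), and not by edgeR or DESeq2. Atp5sl was lower (-0.23 ± 0.06, adjusted p = 0.00992), a call lost without course 6 (-0.22). With the course as a block, which fits these paired cultures, the calls were 4, adding Ndufc2 and Cox8a. Adding IL1b to the IL21 cocktail gave 0 calls in either direction by limma (3.26% and 3.39% of all genes, 13 members at an unadjusted p under 0.05, 0 by edgeR and by DESeq2), and adding IL21 to the IL1b cocktail gave 0 as well (0% and 0% of all genes, 0 members at an unadjusted p under 0.05, 0 by edgeR and by DESeq2).

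Other genes of mitochondrial respiration were also higher at 12 h without cytokines, beside 34.9% of all genes higher and 36.8% lower. Of 8 tested subunits and partners that the name rule misses, 8 were higher than in naive cells (median 1.15), among them Cycs, cytochrome c itself (1.80 ± 0.15), and Ndufab1, the acyl carrier subunit of complex I (1.61 ± 0.11). Of 45 tested assembly factors 35 were higher and 3 lower (median 0.67), with Uqcc2 (1.74 ± 0.09) and Ndufaf2 (1.75 ± 0.17) at the top and Uqcc3 (-1.07 ± 0.12) and Cox20 (-0.62) at the bottom. Of 17 genes of the TCA cycle and pyruvate dehydrogenase 15 were higher and 1 lower (median 0.62), with Idh3a (1.84) and Fh1 (1.70) highest and Idh2, the NADP-dependent isocitrate dehydrogenase, lower (-0.82). Of 7 mitochondrial carriers and channels 6 were higher, led by the porin Vdac1 (1.62) and the ATP and ADP exchanger Slc25a5 (1.48), and the uncoupling protein gene Ucp2 was lower (-0.96).

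At 2 h these lists were split, beside 32.2% of all genes higher and 36.9% lower. The 45 assembly factors had 9 higher and 21 lower, with Ndufaf4 (1.48) and Sco1 (1.32) up and Tmem126b (-1.52) and Sdhaf4 (-1.43) down. Of the 17 TCA cycle genes 6 were higher and 7 lower, shares near those of all genes, and the fall of Idh2 was the largest (-2.73 ± 0.13). Of the regulators of mitochondrial genes, 7 were higher and 4 lower of 11 tested. Pprc1, a coactivator of NRF1, was higher at 2 h (2.03 ± 0.13) and at 12 h (1.61), and Gabpb1, a subunit of the ETS factor GABP, was higher at 2 h (1.95 ± 0.16), while the coactivator Ppargc1b was lower (-1.66 ± 0.13). The regulators had 7 higher and 3 lower at 12 h, beside 34.9% of all genes higher and 36.8% lower. At 72 h they had 4 higher and 4 lower, shares near those of all genes (33.4% and 31.9%).

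With IL6 and TGFb against no cytokines at 72 h, 5 of the 8 subunits that the name rule misses were higher and 0 lower, including Cox4i1, the ubiquitous isoform of the fourth cytochrome oxidase subunit (0.50 ± 0.10), with 213, 200 and 193 CPM against 108, 158 and 170 CPM. Of the 7 carriers 4 were higher and 0 lower, with Vdac1 at 1.08 ± 0.09 and Slc25a5 at 0.79. Of all genes tested, 22.9% were higher and 23.4% lower. The 45 assembly factors had 5 higher and 6 lower, with the copper chaperone Sco1 at 1.75 ± 0.12 and Lyrm7 at -1.05 ± 0.15. The 17 TCA cycle genes had 2 higher and 2 lower, and the 11 regulators 1 higher and 5 lower, among them Tfb1m (-0.52) and the mitochondrial RNA polymerase Polrmt (-0.48).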

How the data were processed

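RNA was isolated and libraries were made with standard Illumina protocols, per the labels. Alignment and counting tools (TopHat and HTSeq, no versions) and 2 builds, the mouse build mm9 and the human build GRCh37, are named in the submitters' processing notes. The authors deposited CPM per gene and library. Dividing these by the value of a single read gave whole reads for 100% of values (within 0.001), so read totals and count tests could be had. No strand setting is stated, so reads from overlapping genes, and from pseudogene copies such as the 4 rows left out, could not be assigned. All columns matched a label, and 0 were left out.

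CPM values were TMM-scaled (edgeR 4.0.16, factors 0.779 to 1.18), a gene was kept at 1 CPM or more in at least 3 libraries of the fit, and log2(CPM + 0.5) was fitted by group with limma 3.58.1 (R 4.3.3, data.table version 1.17.8; trended prior), with Benjamini-Hochberg adjustment over all genes kept: 14695 in courses 1 to 3 (57 libraries), 14859 in courses 4 to 6 (84 libraries) and 15328 in both. The added 0.5 understates folds of low genes. The procedure was tested on simulated data. Alternatives were no TMM, an added 0.1 or 2, no filter, a replicate block, each course left out, a fit of only the groups compared, edgeR quasi-likelihood and DESeq2 1.42.0 on the recovered reads, and members of at least 5 CPM only. Leaving out the course 1 libraries without cytokines at 48 h or 72 h was added after seeing the data.

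The members and lists were chosen with earlier results of these data known. Named genes are core subunits and isoform groups, plus, per comparison and complex, the 2 highest and 2 lowest called members of at least 5 CPM on average with no overlap between libraries, and of the other lists the 2 highest and 2 lowest called genes. Course numbers paired the libraries by their deviations (correlations of 0.393 to 0.495 for IL6 and TGFb at 2 h and of 0.453 to 0.849 between the cocktails), but not in the other comparisons. Replicates differed by more than counting noise in every pair (noise ratio of at least 2.74). Promoter windows came from RefSeq (GRCm38.p6), whose coordinates are not those of mm9. The marker lists were checked once against naive cells: at 72 h without cytokines, 4 of 5 T cell genes, 4 of 6 B cell genes, 7 of 7 myeloid genes, 2 of 2 CD8 genes and 5 of 5 erythroid and platelet genes were lower. The values of 1 tested member of complex I are not reported here, although it is counted with the others.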

Additional observations from a re-analysis of the deposited data

Results flagged for a closer look

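In 8 of the 78 tested members the effect of IL6 and TGFb differed between 72 h and 24 h, with a higher signed log2 effect at 72 h. The test was of the difference itself (limma, Benjamini-Hochberg adjusted over all genes). Of all genes, 12.6% had a higher and 8.79% a lower signed effect at 72 h. The count of 8 is near the first of these shares and is not read as a trait of the members. The effect at 72 h minus that at 24 h, on the log2 scale, was 2.01 ± 0.18 for Cox6a2 (SE; adjusted p = 4.64e-12), 0.90 ± 0.22 for Ndufv3 (adjusted p = 0.002), 0.61 ± 0.14 for Ndufa6 (adjusted p = 0.000654) and 0.59 ± 0.11 for Uqcrfs1 (adjusted p = 7.58e-05). It was 0.58 ± 0.15 for Ndufb11 (adjusted p = 0.00284), 0.41 ± 0.11 for Uqcrq (adjusted p = 0.00615), 0.40 ± 0.11 for Atp5d (adjusted p = 0.00724) and 0.33 ± 0.12 for Cox8a (adjusted p = 0.0354).

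In the muscle isoform Cox6a2 the 24 h libraries of both cultures were near 0. The gene passed the filter through late libraries with IL6 and TGFb, so its p-value is no independent support. In Ndufa6 the 24 h libraries overlapped, with 40.5, 39.5 and 45.0 CPM with the cytokines against 41.4, 44.6 and 47.1 CPM without, whereas at 72 h they were 62.3, 61.0 and 59.3 CPM against 38.6, 43.7 and 44.8 CPM. In Cox8a all 24 h libraries with the cytokines were below those without, with 135, 141.2 and 144 CPM against 148, 153 and 162 CPM. At 72 h the groups overlapped, with 157, 160 and 160 CPM with the cytokines against 164, 121 and 136 CPM without. The Cox8a difference was lost without course 2 (0.24) or course 3 (0.29). The calls of Uqcrq (0.30 and 0.44) and Atp5d (0.28 and 0.41) were lost in the same fits, and those of Ndufa6 (0.59) and Ndufb11 (0.57) were lost without course 2. Cox6a2 fell under the filter without course 1. In a fit of only the groups compared Ndufv3, Ndufb11, Atp5d and Cox8a lost their calls. The course 1 library without cytokines at 72 h, which stood apart, enters all of them, and all 8 were called without it, with a difference of 0.59 for Ndufv3 and 0.40 for Ndufb11.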

How the results depend on the processing

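Of 153 results for members picked as the 2 highest and 2 lowest called, all kept their direction and call under edgeR, DESeq2, an added 2 and the replicate block. Core subunits and isoforms described outside that rule, such as Cox6a2, are not among the 153. Because all 153 were called in the main fit, their calls could only be kept or lost. Without TMM scaling 4 lost their call and Sdhb at 2 h turned to -0.054, against 0.18. An added 0.1 lost 1 call, no filter 4, a fit of only the groups compared 11, and leaving out courses 1, 2 or 3 lost 8, 19 and 14. Without the course 1 libraries at 72 h and 48 h, 2 of 32 and 2 of 13 calls were lost. Without TMM scaling the number of members called with IL6 and TGFb against no cytokines was 3 at 2 h and 35 at 48 h, and the median turned to -0.067 at 48 h and -0.017 at 72 h, against 0.08 at both. Leaving out 1 course gave 0 to 7 members at 2 h, 2 to 3 at 24 h, 15 to 25 at 48 h and 15 to 30 at 72 h, and 3 to 14 for the difference between 72 h and 24 h. A fit of only the groups compared gave 14 at 48 h and 4 for that difference. For IL1b against IL21 the 2 calls became 6 without TMM scaling, 1 with an added 0.1, 4 with the replicate block, 0 to 2 without 1 course and 0 in a fit of only the groups compared, and IL1b added to the IL21 cocktail gave 1 with an added 2. The replicate block, where courses paired, changed no other call. Where they did not, it gave 53, 71, 71 and 61 calls without cytokines at 2 h, 12 h, 24 h and 72 h, and 8, 26 and 21 with IL6 and TGFb against none at 24 h, 48 h and 72 h. Unscaled values moved the median of all genes at 72 h against naive cells by 0.101. The counts against naive cells stayed within 41 to 46 (2 h), 66 to 69 (12 h), 65 to 68 (24 h) and 56 to 58 (72 h) without 1 course. Of 270 complex medians 12 moved by more than the replicate spread when members under 5 CPM were left out. The cause of these changes was not tested. At these depths genes near 1 CPM, such as Cox6a2 and Cox7a1, rest on few reads.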

Other observations

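Among subunits that the name rule misses, Cox4i2, the isoform of the fourth cytochrome oxidase subunit known from tissues at low oxygen, was at 1.61, 1.09 and 1.35 CPM at 4 h with IL6 and TGFb, against 3.05, 2.54 and 2.86 CPM without cytokines. At 72 h it was higher with the cytokines (0.64 ± 0.19). Ndufa4l2, another isoform of that kind, had its highest values, 0.716, 0.656 and 0.422 CPM, at 4 h without cytokines and was below the level needed for a test.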
